A study of Mus musculus with 32 samples.

Results

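The 10 genes described here belong to the machinery with which an activated B cell enters the cell cycle: Myc, its partner Max, the MAX-binding repressors Mxd4 and Mxi1, the MYC-induced factor Tfap4, the AP-1 family factor Batf, the D-type cyclins Ccnd2 and Ccnd3, and the kinases Cdk4 and Cdk6. They were chosen by name from a table of 53465 genes, and each of the 10 matched 1 gene of the table. RNA was sequenced from sorted B cells of mouse spleen, in 32 libraries that form 8 groups of 4: naive B cells, dark zone and light zone germinal centre B cells and plasma cells, each from WT and from aPIK3CD mice. All mice were C57BL/6, aged 12 weeks, and had received an intraperitoneal immunization with NP-CGG/alum, a hapten on a foreign carrier protein, 14 days before sorting. WT and aPIK3CD mice both carried a cre recombinase allele. The series' text describes aPIK3CD as activated PIK3CD signalling, that is, of the delta isoform of phosphoinositide 3-kinase. The labels do not say in which of the sorted cells the allele had been recombined. Each library came from 500 cells. Nothing in the labels says whether replicates were separate mice, so p-values measure the spread between these samples.

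MYC binds DNA as a dimer with MAX at E-box sequences and raises the transcription of genes for ribosome production, metabolism and growth. MXD4 and MXI1 compete for MAX and repress many of the same genes, typically in cells that leave the cycle. In the germinal centre, B cells divide and mutate in the dark zone and are tested for antigen binding in the light zone, where help from T cells induces MYC in the few cells that are positively selected. BATF pairs with JUN proteins and with IRF4 on composite sites and is needed for class switching. D-type cyclins activate CDK4 and CDK6, which phosphorylate the retinoblastoma protein and open the way into S phase. Of these cyclins, Ccnd3 is known for the divisions of dark zone cells and Ccnd2 for the activation of mature B cells.

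Promoter windows, the 250 bases before an annotated start, were found for 7 of the 10 members in the RefSeq table (build GRCm38.p6), and those that hold the E-box CACGTG are shown because this is the site that MYC and MAX bind. The motif was searched on both strands, which read alike. It lay in the windows of Cdk4, Mxd4 and Cdk6, and 6.02% of 32851 starts in the table hold it. Each sequence is given 5' to 3' on the gene's strand with the E-box in capitals, without bases that lie in annotated exons of the same gene. The stretches are chr10:127063285-127063533 (plus strand), chr5:34187721-34187960 (minus strand) and chr5:3343643-3343731 (plus strand). That of Cdk6 lies within the gene as annotated by GENCODE, which begins at chr5:3341485.
Cdk4: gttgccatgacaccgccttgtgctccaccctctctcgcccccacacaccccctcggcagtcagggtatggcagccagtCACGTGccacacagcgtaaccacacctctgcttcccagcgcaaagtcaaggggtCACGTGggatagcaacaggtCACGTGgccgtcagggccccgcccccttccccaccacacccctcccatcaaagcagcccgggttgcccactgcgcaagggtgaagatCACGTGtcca
Mxd4: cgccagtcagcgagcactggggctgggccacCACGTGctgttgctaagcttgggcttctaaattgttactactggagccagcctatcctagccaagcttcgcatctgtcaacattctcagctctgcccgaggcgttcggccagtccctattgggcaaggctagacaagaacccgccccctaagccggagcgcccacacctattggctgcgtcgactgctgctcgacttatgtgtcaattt
Cdk6: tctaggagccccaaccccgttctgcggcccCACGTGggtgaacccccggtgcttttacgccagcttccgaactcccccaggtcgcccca
The Cdk4 window holds 4 E-boxes, 172, 118, 98 and 11 bases before the start, and 0.0609% of starts in the table hold 3 or more. The E-box of Mxd4 lies 219 bases and that of Cdk6 220 bases before the start. The AP-1 motif TGANTCA, which BATF and JUN proteins bind, was present at 6.75% of all starts and in none of these windows. The FOXO motif GTAAACA, also searched as its reverse complement, was present at 3.17% of all starts, and at 1 start each of Mxi1 and Ccnd3. A match describes letters only, and binding was not measured.

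Total counts per library ranged from 473149 to 2820830 in 31 libraries, with plasma cells shallowest (473149 to 788999) and naive B cells deepest (1965329 to 2820830). Dark zone WT replicate 3 held only 25797 counts and stands apart. It entered the tests, is left out of the dark zone means given below, and had 3 counts of Myc and 0 counts of Mxd4, Mxi1, Tfap4 and Batf, a depth at which 0 counts allow up to 116 CPM (counts scaled to a common library total). The 4 libraries titled aPIK3CD replicate 1, 1 per population, read WT in their genotype field. They were analysed by their title, and calls of the members that change when these libraries are taken as WT are given beside the value. Summed naive B cell markers were highest in naive B cells (medians of 5429 CPM in WT and 5513 CPM in aPIK3CD), germinal centre markers in the dark zone (2997 and 3165 CPM) and plasma cell markers in plasma cells (14794 and 12622 CPM). Light zone markers had medians of 2082 and 1997 CPM in the light zone and 1280 and 1353 CPM in the dark zone, and did not separate light zone from naive B cells (1955 and 1951 CPM), whose ranges overlapped with it. Levels below are CPM scaled by TMM, and tests are edgeR's quasi-likelihood F test of each pair of groups, with the p-value adjusted by Benjamini-Hochberg over all genes tested. A gene passed at an adjusted p below 0.05. In bulk samples, fewer cells that express a gene and less RNA per cell cannot be told apart.

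The members differed far more between populations than between genotypes. Between light zone and dark zone, 3 of 8 tested members passed in WT, where 2.55% of all tested genes passed, and 3 of 8 in aPIK3CD, where 6.04% passed, all of them higher in the light zone. Between light zone and naive B cells, 4 of 9 passed in WT (background 40.0%) and 4 of 9 in aPIK3CD (42.6%), 3 higher and 1 lower in the light zone in each. Between dark zone and naive B cells, 5 of 9 passed in WT (41.4%) and 7 of 9 in aPIK3CD (43.6%). Plasma cells differed from naive B cells at 6 of 9 members in WT (49.6%) and 8 of 9 in aPIK3CD (52.8%), and from the dark zone at 6 of 9 in WT (55.1%) and 5 of 9 in aPIK3CD (61.6%). Against the light zone, plasma cells differed at 9 of 9 members in both genotypes, 3 higher and 6 lower, where 56.4% of genes passed in WT and 61.2% in aPIK3CD. Comparisons that share a population share its libraries. Some members passed the filter on low counts only by the group in which they are high, so their calls add no support there. Among them are Mxi1 between either zone and naive B cells or plasma cells, and Cdk6 between plasma cells and either zone. In aPIK3CD, Cdk6 between plasma cells and naive B cells is another. Between genotypes, 0 of 9 tested members passed in naive B cells (0.0%), 0 of 8 in the dark zone (0.021%), 0 of 8 in the light zone (0.0%) and 0 of 8 in plasma cells (3.2%). Against backgrounds of 40.0% to 61.6%, the counts over naive B cells and plasma cells say little of the members as a group. The zone counts stood above theirs, but the members were chosen by name with earlier results of these data known. That excess is therefore a description and tests nothing about the group.

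Myc was high in naive B cells and in the light zone and low in the dark zone and in plasma cells. In WT dark zone libraries it measured 30.9, 35.2 and 57.8 CPM, and in WT light zone libraries 148, 157, 199 and 114 CPM. The shallow dark zone library gave 105 CPM from 3 counts. Even with that library, the zones did not overlap in WT, and Myc was 3.62-fold higher in the light zone (log2 fold change 1.85 ± 0.25 SE, adjusted p = 0.00029). In aPIK3CD it measured 48.1, 34.8, 64.3 and 108 CPM in the dark zone and 183, 209, 175 and 182 CPM in the light zone, 2.92-fold higher without overlap (1.55 ± 0.25, adjusted p = 0.0016). The genotype difference in this zone step was -0.28 ± 0.36 on the log2 scale and did not pass (adjusted p = 1.0). Naive B cells carried 185 ± 34 CPM (SD, n = 4) in WT and 193 ± 14 CPM (n = 4) in aPIK3CD. Light zone cells did not differ from them beyond their spread, with log2 fold changes of -0.21 ± 0.18 in WT (adjusted p = 0.39) and 0.01 ± 0.11 in aPIK3CD (adjusted p = 0.93). The dark zone was lower than naive B cells, at -2.01 ± 0.26 in WT (adjusted p = 1.2e-05) and -1.53 ± 0.27 in aPIK3CD (adjusted p = 0.00065). Plasma cells held 36.8 ± 9.1 CPM in WT and 47.5 ± 12.3 CPM in aPIK3CD, 4.45-fold and 3.68-fold below naive B cells (adjusted p = 2.5e-06 and 7.8e-06). Plasma cells and dark zone were neighbours that did not differ, at -0.15 ± 0.34 in WT (adjusted p = 0.74) and -0.35 ± 0.34 in aPIK3CD (adjusted p = 0.39).

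**Figure D1:**
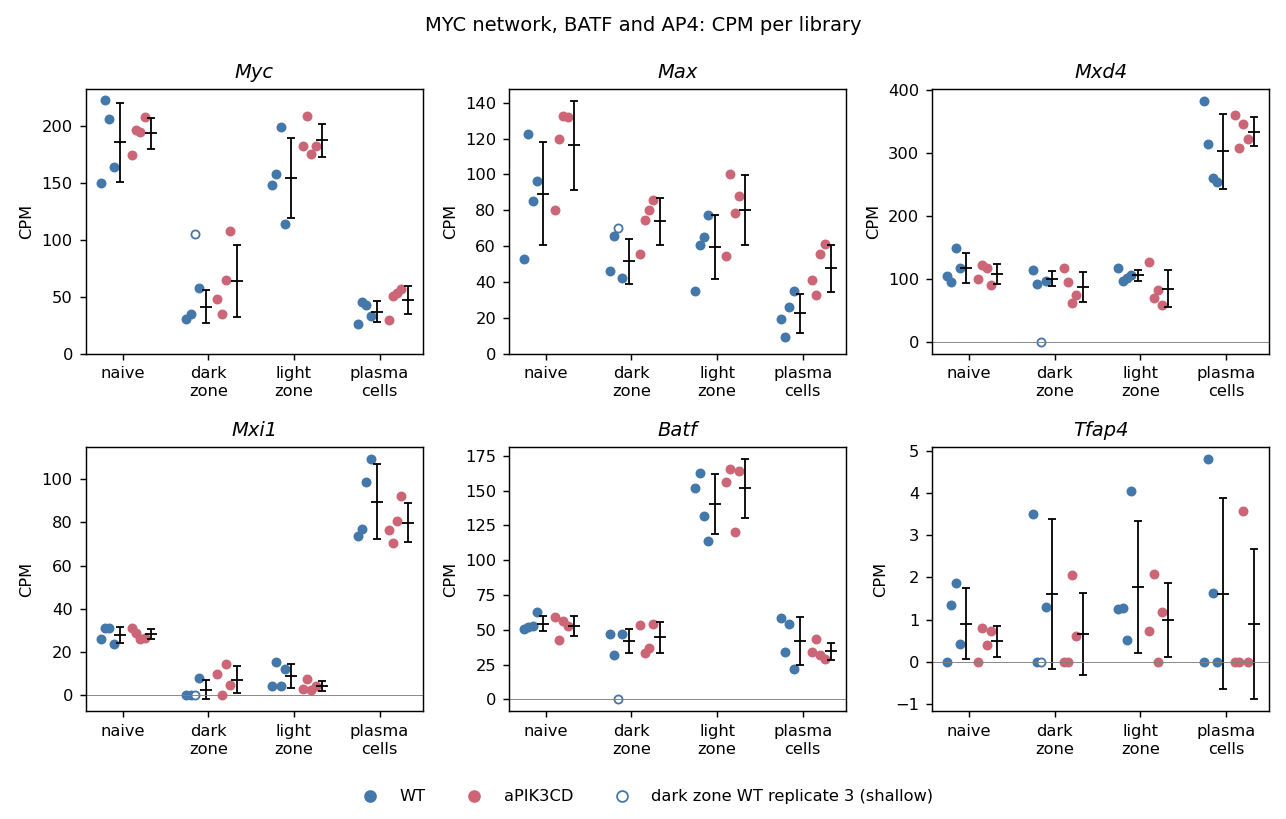
Level of 6 transcription factor genes in each library, in CPM (vertical axis, linear, 1 scale per gene) for the 4 populations, with WT in blue and aPIK3CD in red, and a bar for mean and SD without the shallow library, which is drawn as an open circle. Myc is high in naive B cells and light zone, Batf in the light zone, and Mxd4 and Mxi1 in plasma cells, while Tfap4 lies under 5 CPM in every library.

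Other cell types moved with this zone step. Summed naive B cell markers ranged from 1835 to 2020 CPM in WT light zone and from 1185 to 1469 CPM in WT dark zone libraries, and from 1890 to 2140 against 1138 to 1598 CPM in aPIK3CD. T cell markers summed to 319 to 638 CPM against 223 to 236 CPM in WT, and to 415 to 601 CPM against 277 to 369 CPM in aPIK3CD. Myeloid markers summed to 110 to 360 CPM against 25.6 to 71.0 CPM in WT and to 92.1 to 500.3 CPM against 52.1 to 128 CPM in aPIK3CD, with 4 of the 12 myeloid markers at 0 in the WT dark zone. Myc and Ccnd2 are themselves high in naive B cells. The part of these cells in the zone differences was not tested.

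Max, the obligate partner of MYC, was expressed throughout and followed a flatter course. Its mean was 89.3 ± 28.9 CPM in WT naive B cells, 51.5 ± 12.7 CPM (n = 3) in the dark zone, 59.6 ± 17.6 CPM in the light zone and 22.6 ± 10.7 CPM in plasma cells. The aPIK3CD means were 116 ± 25, 74.0 ± 13.1, 80.2 ± 19.5 and 47.6 ± 13.1 CPM in the same order. Max was lower in plasma cells than in naive B cells, at -1.79 ± 0.35 in WT (adjusted p = 0.00071) and -1.13 ± 0.24 in aPIK3CD (adjusted p = 0.0019). Light and dark zone did not differ detectably (0.18 ± 0.28 and 0.13 ± 0.22). Light zone against naive B cells gave -0.53 ± 0.28 in WT and -0.47 ± 0.22 in aPIK3CD, and neither passed (adjusted p = 0.15 and 0.11). The dark zone lay under naive B cells by a value that passed in aPIK3CD (-0.59 ± 0.21, adjusted p = 0.040) and not in WT (-0.68 ± 0.28, adjusted p = 0.068, and 0.049 with the first aPIK3CD replicates taken as WT). The WT value passed under 7 of 17 alternatives. The aPIK3CD call was lost without any 1 of 6 of the 8 libraries, all but dark zone replicate 4 and naive replicate 1. It was also lost when 1 model was fitted to the 8 groups together, so these calls do not separate the genotypes.

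Mxd4, a MAX-binding repressor of the MXD family, was a plasma cell gene among these populations. WT plasma cells measured 381, 313, 259 and 254 CPM, and aPIK3CD plasma cells 360, 307, 345 and 321 CPM. In the other 3 populations, libraries other than the shallow one ranged from 58.6 to 149 CPM, so plasma cells did not overlap with any of them. The level in plasma cells was 2.91-fold that of naive B cells in WT (log2 fold change 1.54 ± 0.19, adjusted p = 9.8e-06) and 3.45-fold in aPIK3CD (1.79 ± 0.14, adjusted p = 4.2e-07). Naive B cells, dark zone and light zone could not be ordered, with each neighbouring step short of the threshold in both genotypes. Reads of Mxd4 could in part be those of a gene on the opposite strand, which shares 6.06% of its exonic bases, because the library kit does not mark strand.

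Mxi1, a second repressor of that family, took 3 levels. Plasma cells were highest, with 73.7, 77.0, 98.5 and 109 CPM in WT and 76.4, 70.5, 80.5 and 92.0 CPM in aPIK3CD. Naive B cells ranged from 23.8 to 31.4 CPM over both genotypes, and germinal centre libraries from 0 to 15.3 CPM. No 2 of these 3 ranges overlapped. Plasma cells exceeded naive B cells 3.6-fold in WT (1.85 ± 0.25, adjusted p = 1.9e-05) and 3.13-fold in aPIK3CD (1.65 ± 0.20, adjusted p = 2.0e-05). Light zone cells were lower than naive B cells, at -1.60 ± 0.48 in WT (adjusted p = 0.016) and -2.65 ± 0.44 in aPIK3CD (adjusted p = 0.00047). The dark zone was lower too, at -3.27 ± 0.82 in WT (adjusted p = 0.0044), with values from -8.68 to -2.5 over the alternatives. That size rests on replicate 4, which alone among the 4 WT dark zone libraries had counts (12), and without it the fit gave -8.68, which is no bound because the rest are at 0. In aPIK3CD the value was -1.86 ± 0.64 (adjusted p = 0.033), lost without any 1 of 4 libraries (replicates 1 and 2 of naive B cells, 1 and 4 of the dark zone) or with replicate 1 counted as WT. Mxi1 did not pass the filter on low counts in the comparison of the zones, so light and dark zone were not ordered. In the comparisons of either zone with naive B cells it came through that filter by naive B cells, in which it is high. The adjusted p of those fits therefore adds no support beyond the separate ranges.

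Within libraries, the ratio of counts per exonic base follows Myc against Mxd4 over the groups. Exonic lengths merge all annotated transcripts of a gene, so a ratio between genes carries an offset of unknown size. Shifts between groups can be read from it, but not which gene has more transcripts. The log2 ratio of Myc over Mxd4 averaged 2.31 ± 0.37 in WT naive B cells, 0.31 ± 0.57 (n = 3) in the dark zone, 2.17 ± 0.38 in the light zone and -1.41 ± 0.57 in plasma cells. In aPIK3CD it was 2.50 ± 0.24, 1.11 ± 0.97, 2.85 ± 0.51 and -1.21 ± 0.51. The ratio was lowest in plasma cells in both genotypes, where it lay between -2.23 and -0.86 in every library.

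Tfap4 encodes AP4, a factor that MYC induces in activated lymphocytes. It was barely detected: 46 counts in all over the 32 libraries (95% exact Poisson interval 33.7 to 61.4, counting error only), spread over 20 libraries with at most 5 counts in any. Group means lay between 0.48 and 1.78 CPM. Tfap4 passed the filter on low counts in no comparison, and no order of its levels is given. A library with 0 counts allows up to 1.17 to 5.69 CPM, other than the shallow one, so a difference of a few CPM was not detectable at this depth.

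Batf stood out in the light zone. WT light zone libraries measured 152, 163, 132 and 114 CPM, and aPIK3CD light zone libraries 156, 165, 120 and 164 CPM. In the other 3 populations it ranged from 21.9 to 62.6 CPM, apart from the shallow library at 0. Light zone libraries did not overlap with those of any other population. Light zone exceeded dark zone 3.38-fold in WT (1.75 ± 0.23, adjusted p = 0.00029) and 3.38-fold in aPIK3CD (1.76 ± 0.20, adjusted p = 0.00014). Light zone also exceeded naive B cells, by 1.41 ± 0.18 in WT (adjusted p = 4.4e-05) and 1.58 ± 0.17 in aPIK3CD (adjusted p = 1.8e-05). Plasma cells were lower than the light zone, at -1.60 ± 0.25 in WT and -2.04 ± 0.20 in aPIK3CD (adjusted p = 7.1e-05 and 7.5e-07). Naive B cells, dark zone and plasma cells did not differ past the threshold. In WT, dark zone libraries other than the shallow one (32.2 to 47.1 CPM) lay under naive B cells (50.6 to 62.6 CPM) without overlap. Dark zone against naive B cells gave -0.33 ± 0.30 in WT and -0.18 ± 0.25 in aPIK3CD (adjusted p = 0.41 and 0.60), and plasma cells against naive B cells -0.19 ± 0.30 and -0.46 ± 0.23 (adjusted p = 0.61 and 0.12).

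**Figure D2:**
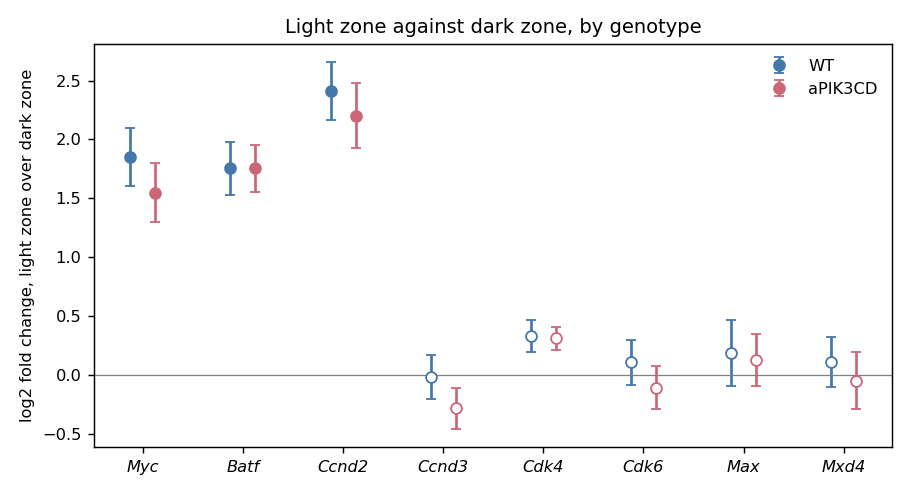
Log2 fold change of light zone over dark zone (vertical axis) for the 8 members tested, with WT in blue, aPIK3CD in red, bars of 1 SE, and filled points where the adjusted p is below 0.05. Myc, Batf and Ccnd2 lie between 1.55 and 2.41, and the other 5 members between -0.28 and 0.33.

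Ccnd2, cyclin D2, was lowest in the dark zone and highest in plasma cells. WT dark zone libraries measured 31.6, 32.2 and 73.4 CPM with 35.1 CPM in the shallow one, and aPIK3CD dark zone libraries 32.1, 22.3, 54.1 and 82.2 CPM. WT light zone libraries measured 210, 249, 224 and 299 CPM, and aPIK3CD light zone libraries 211, 191, 257 and 225 CPM. The zones did not overlap in either genotype. Light zone exceeded dark zone 5.31-fold in WT (2.41 ± 0.25, adjusted p = 3.8e-05) and 4.6-fold in aPIK3CD (2.20 ± 0.28, adjusted p = 0.00021), and the genotype difference in this step was -0.20 ± 0.38 (adjusted p = 1.0). Naive B cells, at 229 ± 25 and 197 ± 36 CPM, were neighbours of the light zone that did not differ from it (0.15 ± 0.15 and 0.23 ± 0.15, adjusted p = 0.46 and 0.25). Plasma cells reached 741, 977, 714 and 639 CPM in WT and 1023, 871, 742 and 1091 CPM in aPIK3CD. All 8 lay above every library of the other populations, 3.78-fold over naive B cells in WT (1.92 ± 0.16, adjusted p = 1.9e-07) and 5.25-fold in aPIK3CD (2.39 ± 0.16, adjusted p = 1.1e-07). Genes on the opposite strand share 7.865% of the exonic bases of Ccnd2, and their reads cannot be told apart there.

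Ccnd3, cyclin D3, showed the opposite course at its ends. Plasma cells were lowest, with 56.4, 38.5, 65.7 and 76.6 CPM in WT and 66.2, 107, 147 and 85.5 CPM in aPIK3CD. The dark zone held 220, 255 and 245 CPM in WT, with 105 CPM from the shallow library, and 329, 230, 231 and 333 CPM in aPIK3CD. Plasma cells were lower than the dark zone, at -1.87 ± 0.23 in WT (adjusted p = 1.5e-06) and -1.39 ± 0.23 in aPIK3CD (adjusted p = 0.00011), without overlap. They were also lower than naive B cells, at -1.38 ± 0.22 in WT (adjusted p = 0.00013) and -0.75 ± 0.21 in aPIK3CD (adjusted p = 0.010, and 0.054 with the first aPIK3CD replicates taken as WT). Light and dark zone did not differ beyond their spread (-0.02 ± 0.19 and -0.28 ± 0.17, adjusted p = 0.99 and 0.40), unlike the zone step of Ccnd2. The dark zone exceeded naive B cells by 0.51 ± 0.18 in WT (adjusted p = 0.033) and 0.64 ± 0.14 in aPIK3CD (adjusted p = 0.0032), and the WT call was lost under 10 of 17 alternatives, 5 of them without a single library (dark zone replicates 1, 2 and 4, naive replicates 1 and 4). Light zone against naive B cells gave 0.46 ± 0.20 and 0.35 ± 0.16 (adjusted p = 0.083 and 0.088), the WT value passing with the first aPIK3CD replicates taken as WT (adjusted p = 0.020). The gene shares 4.11% of its exonic bases with Bysl on the opposite strand.

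**Figure D3:**
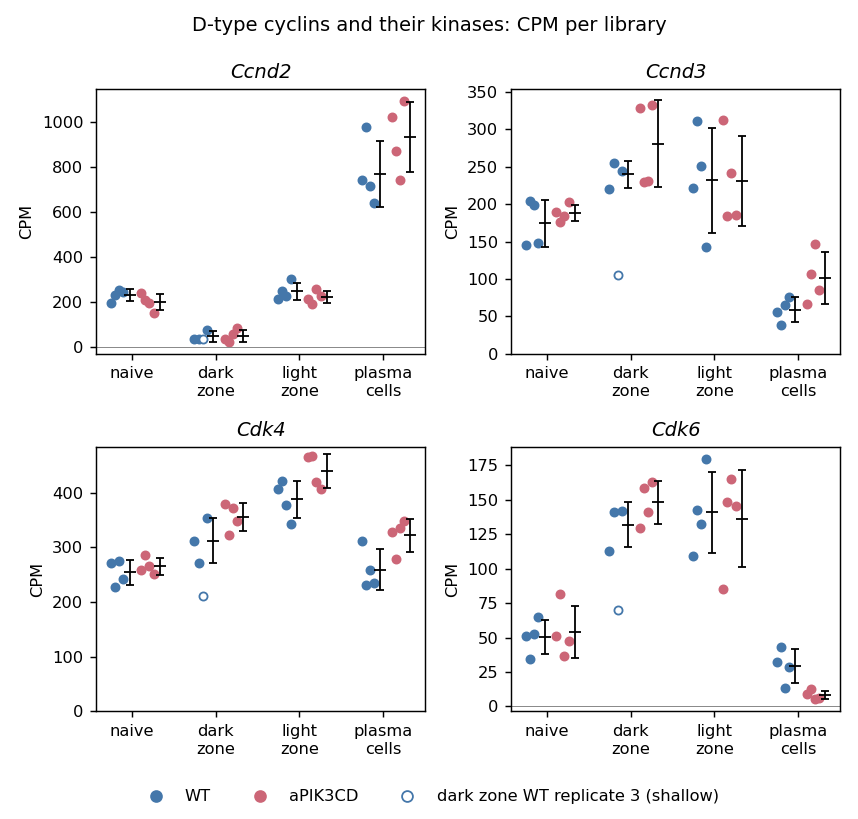
Level of both D-type cyclins and both kinases in each library, in CPM (vertical axis, linear, 1 scale per gene) for the 4 populations, with WT in blue and aPIK3CD in red, and a bar for mean and SD without the shallow library, drawn as an open circle. Ccnd2 peaks in plasma cells, where Ccnd3 and Cdk6 are lowest, and Cdk4 varies least.

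The balance of the cyclins shifted between the zones and again in plasma cells. Per exonic base, the log2 ratio of Ccnd2 over Ccnd3 was 0.31 ± 0.23 in WT naive B cells and -0.05 ± 0.33 in aPIK3CD naive B cells. In the dark zone it was -2.61 ± 0.67 (n = 3) and -2.81 ± 0.75, and under -1.8 in every dark zone library shown. In the light zone it was 0.02 ± 0.63 and -0.14 ± 0.36, with no library beyond 0.96 in either direction. In plasma cells it was 3.62 ± 0.68 and 3.15 ± 0.72, and over 2.2 in all 8 libraries. These ratios are descriptions without a test of their own. They carry the same kind of offset from exonic length, so only their shifts between groups can be read.

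Cdk4 varied less between populations than the other members with a test. Its levels were 254 ± 23 CPM in WT naive B cells, 312 ± 41 CPM (n = 3) in the dark zone, 387 ± 35 CPM in the light zone and 259 ± 38 CPM in plasma cells. In aPIK3CD the same order gave 265 ± 15, 355 ± 25, 439 ± 31 and 322 ± 30 CPM. Light zone cells exceeded naive B cells by 0.66 ± 0.13 in WT (adjusted p = 0.0011) and 0.79 ± 0.09 in aPIK3CD (adjusted p = 2.9e-05), without overlap. The step from dark to light zone was 0.33 ± 0.14 in WT and 0.31 ± 0.10 in aPIK3CD and did not pass (adjusted p = 0.24 and 0.086). The dark zone lay over naive B cells by a value that passed in aPIK3CD (0.48 ± 0.10, adjusted p = 0.0019) and not in WT (0.36 ± 0.16, adjusted p = 0.079, and 0.0085 with the first aPIK3CD replicates taken as WT). Plasma cells were lower than the light zone, at -0.46 ± 0.14 in WT and -0.36 ± 0.11 in aPIK3CD (adjusted p = 0.012 in each, and 0.053 in aPIK3CD with its first replicates taken as WT). Tspan31 on the opposite strand shares 19.7% of the exonic bases of Cdk4, the largest share among the members, and its reads cannot be told apart there.

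Cdk6 was a germinal centre gene in this series. It measured 50.7 ± 12.4 CPM in WT naive B cells, 132 ± 16 CPM (n = 3) in the dark zone and 141 ± 29 CPM in the light zone, and 54.1 ± 19.2, 148 ± 16 and 136 ± 35 CPM in aPIK3CD. The dark zone exceeded naive B cells by 1.44 ± 0.24 in WT (adjusted p = 0.00018) and 1.51 ± 0.24 in aPIK3CD (adjusted p = 0.00026). The light zone did so by 1.53 ± 0.23 (adjusted p = 0.00018) and 1.40 ± 0.27 (adjusted p = 0.0012), and the zones did not differ beyond their spread (0.11 ± 0.19 and -0.11 ± 0.19). Plasma cells were far below the light zone, at -2.18 ± 0.30 in WT (adjusted p = 2.1e-05) and -3.94 ± 0.32 in aPIK3CD (adjusted p = 1.3e-07). Against naive B cells, plasma cells were lower in aPIK3CD (-2.54 ± 0.39, adjusted p = 0.00018), and the WT value of -0.64 ± 0.37 did not pass (adjusted p = 0.16, and 0.044 at -0.91 with the first aPIK3CD replicates taken as WT). In the fits of plasma cells against the light zone, Cdk6 came through the filter on low counts by the light zone, in which it is high. In the aPIK3CD fit against naive B cells it came through by naive B cells. The adjusted p of these fits therefore adds no support beyond the ranges, which did not overlap.

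Cdk6 was listed at lower levels in aPIK3CD than in WT plasma cells, at low counts. WT plasma cells measured 32.5, 43.3, 13.1 and 28.4 CPM from 15, 18, 8 and 13 counts, and aPIK3CD plasma cells 8.82, 12.7, 5.37 and 6.46 CPM from 6, 7, 3 and 4 counts. The groups did not overlap, although the nearest libraries were 13.1 and 12.7 CPM, and the aPIK3CD libraries had larger totals on average (708450 ± 66597 against 565430 ± 98866 counts). With these counts, Cdk6 did not pass the filter on low counts in the main comparison and has no test there. Without that filter the log2 fold change was -1.74 ± 0.53 (adjusted p = 0.032, where 3.82% of genes passed), and when 1 model was fitted to the 8 groups together it was -1.77 ± 0.43 (adjusted p = 0.030, where 1.25% passed). With the first aPIK3CD replicate taken as WT it did not pass (-1.58 ± 0.61, adjusted p = 0.27). With 1 library left out, Cdk6 came through the filter in 5 of 8 cases, by the WT group in which it is high, so the adjusted p of those fits (0.031 to 0.14, under 0.05 only without WT replicate 3) support nothing. The test of whether the genotype effect differs among the 4 populations did not pass for Cdk6 (adjusted p = 0.34, and 0.024 without the filter, where 1.21% of genes passed). The log2 ratio of Cdk4 over Cdk6 per exonic base was 5.36 ± 0.78 in WT and 7.45 ± 0.67 in aPIK3CD plasma cells, without overlap, against 3.35 to 4.46 on average in the other 6 groups.

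**Figure D4:**
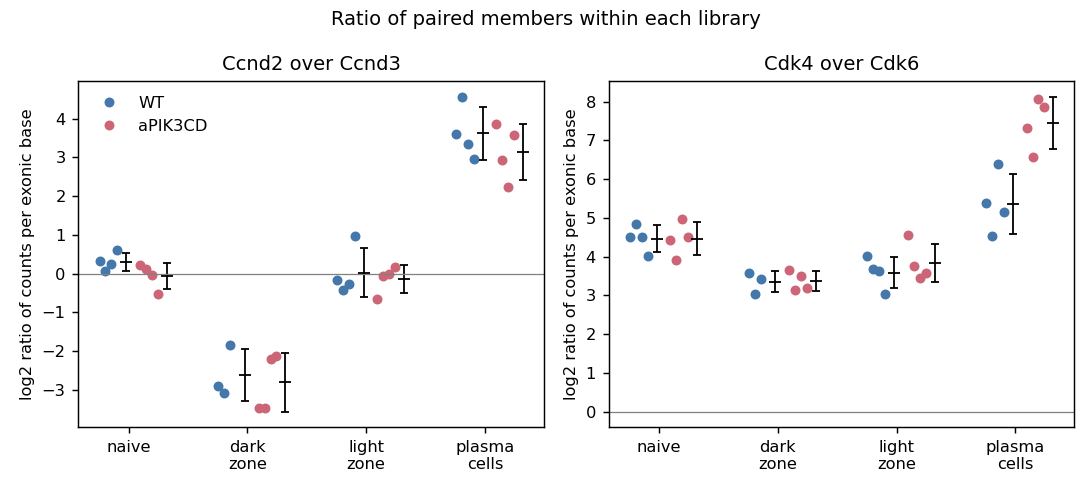
Log2 ratio of counts per exonic base (vertical axis) of Ccnd2 over Ccnd3 and of Cdk4 over Cdk6 within each library, for the 4 populations, with WT in blue, aPIK3CD in red and a bar for mean and SD, without the shallow library. Ccnd2 over Ccnd3 lies under -1.8 in the dark zone and over 2.2 in plasma cells, and Cdk4 over Cdk6 is highest in aPIK3CD plasma cells.

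No member passed the threshold between aPIK3CD and WT in the main comparisons. Over the 4 populations, 33 member tests gave 0 adjusted p below 0.05 with edgeR, 2 unadjusted p below 0.05, and 0 calls with DESeq2 or with limma voom. Both unadjusted ones were among 8 members in plasma cells, where 23.3% of all genes had one. The log2 fold changes ranged from -0.34 to 1.02. In plasma cells Max measured 19.5, 9.63, 26.3 and 35.0 CPM in WT and 41.2, 32.5, 55.4 and 61.3 CPM in aPIK3CD. The groups overlapped by 1 library, and the log2 fold change of 1.02 ± 0.36 did not pass (adjusted p = 0.12). Max values in the other populations were 0.36 ± 0.25 in naive B cells, 0.49 ± 0.26 in the dark zone and 0.44 ± 0.25 in the light zone (adjusted p = 1.0, 0.71 and 0.77). Ccnd3 in plasma cells gave 0.73 ± 0.27 (adjusted p = 0.14), and 0.034 without the filter on low counts. For Myc the values were 0.55 ± 0.35 in the dark zone, 0.26 ± 0.15 in the light zone and 0.33 ± 0.30 in plasma cells (adjusted p = 0.76, 0.77 and 0.55). The other plasma cell values were 0.29 ± 0.14 for Cdk4, 0.24 ± 0.15 for Ccnd2, 0.12 ± 0.15 for Mxd4, -0.20 ± 0.19 for Mxi1 and -0.32 ± 0.32 for Batf. A p that misses the threshold does not show that the genotypes are alike, and SEs of 0.10 to 0.38 leave room for changes of that size. The difference of the genotype effect between light and dark zone passed for 0 of 9 members tested (0.0% of genes passed), and that among the 4 populations for 0 of 9 (0.0256%), with edgeR, and with 0 members in DESeq2 and limma voom. In each, 1 of 9 members had an unadjusted p below 0.05, against 3.26% and 7.07% of all genes.

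**Figure D5:**
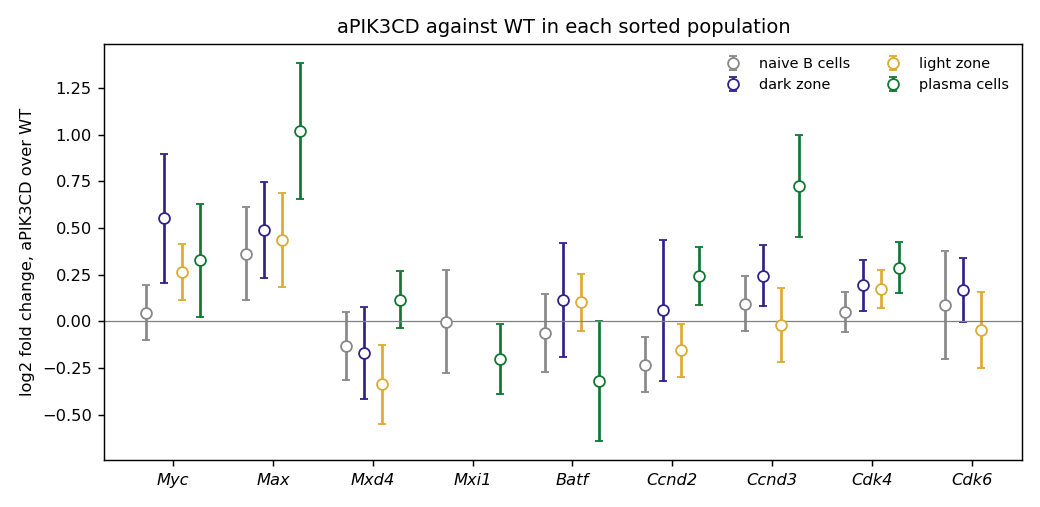
Log2 fold change of aPIK3CD over WT (vertical axis) for each member and population in which it was tested, with bars of 1 SE. All points are open, as none passed, and the values furthest from 0 are Max at 1.02 and Ccnd3 at 0.73, both in plasma cells, where Cdk6 was not tested.

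Other genes of these pathways were examined as lists, written with earlier results of these data known, so their counts are descriptions. Between the zones, 2.55% of all tested genes passed in WT and 6.04% in aPIK3CD. Of 30 MYC target genes, 11 were higher in the light zone than in the dark zone in WT and 0 lower, with a median log2 fold change of 0.64 against 0.02 over all genes. In aPIK3CD 14 of the 30 were higher and 0 lower, with a median of 0.46 against -0.01. Those with the smallest p in WT were Gnl3 (1.03 ± 0.15, adjusted p = 0.00060), Srm, the spermidine synthase (1.37 ± 0.21, adjusted p = 0.00083), Nolc1 (0.92 ± 0.16, adjusted p = 0.0023) and Ppan (0.83 ± 0.18, adjusted p = 0.014), of which Gnl3, Nolc1 and Ppan are nucleolar genes of ribosome production. Srm, Nolc1 and Gnl3 also led in aPIK3CD (1.22 ± 0.15, 0.75 ± 0.13 and 0.76 ± 0.13). Of 23 positive selection genes tested, 6 were higher in the WT light zone and 0 lower (median 0.95), among them Cd40, the receptor for T cell help (1.03 ± 0.16, adjusted p = 0.0012), Cd83 (1.06 ± 0.19) and Nfkb2 (1.38 ± 0.26). In aPIK3CD 5 of 23 were higher and 0 lower (median 0.42), led by Ebi3 (3.52 ± 0.51, adjusted p = 0.00073). The positive selection list holds markers by which a light zone is recognised, so its direction is not independent of the sort. Without the shallow library the WT counts were 11 of 30 and 6 of 23.

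Among 7 AP-1 and BATF partners tested between the zones in WT, Irf4 (2.95 ± 0.39, adjusted p = 0.00029) and Junb (0.93 ± 0.20, adjusted p = 0.016) were higher in the light zone and Bach2 was lower (-0.90 ± 0.17, adjusted p = 0.0046). In aPIK3CD only Bach2 passed (-1.05 ± 0.14, adjusted p = 0.00031). Of 11 other G1 and S phase cyclins, kinases and E2F factors, 0 passed in WT, and Cdk2 (-0.89 ± 0.16) and E2f2 (-0.82 ± 0.16) were lower in the aPIK3CD light zone. Of 3 CDK inhibitors tested, 0 passed in WT and Cdkn2d was lower in aPIK3CD (-0.73 ± 0.14, adjusted p = 0.0052). Other MYC and MAX network genes had 0 of 5 passing in WT and 0 of 6 in aPIK3CD. Over all genes tested, 2.55% passed in WT and 6.04% in aPIK3CD. Whether these list differences themselves differ between the genotypes was not tested.

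Set against naive B cells, the lists moved in other proportions. MYC targets were higher at 21 of 30 and lower at 0 (median 0.70 against -0.04 over all genes, where 40.0% of genes passed), while Myc itself did not differ. In aPIK3CD 23 of 30 were higher and 0 lower (median 0.81). G1 and S phase genes were higher at 8 of 11 and lower at 2 in both genotypes, led in WT by Ccna2 (4.78 ± 0.53) and Ccne2 (3.88 ± 0.43). AP-1 and BATF partners were lower at 5 of 7 in WT, among them Jun (-2.32 ± 0.45) and Junb (-0.72 ± 0.15), and at 3 of 7 in aPIK3CD, with 0 higher, and the share in aPIK3CD is close to the 42.6% of all genes that passed. Positive selection genes were higher at 4 and lower at 8 of 24 in both genotypes (medians -0.20 and -0.28). Their share passing in either direction is near the 40.0% and 42.6% of all genes, so no direction of the list is read from it. Other cell types moved with this comparison in WT: natural killer cell markers were lower at 5 of 6 tested (summed 297 to 482 CPM in naive B cells, median 16.6 CPM in the light zone), and 4 of 7 tested T cell and 4 of 7 tested myeloid markers were higher. The part of these cells was not tested. Between genotypes, 0 genes of the pathway lists passed with edgeR in any population. Of the marker lists, 1 of 8 tested plasma cell markers was lower in aPIK3CD plasma cells. Pathway list genes at an unadjusted p below 0.05 were 15 of 76 in the dark zone, 15 of 63 in plasma cells, 7 of 80 in the light zone and 1 of 82 in naive B cells. Over all genes, the shares were 7.5%, 23.3%, 6.63% and 3.06% in the same order. MYC targets had median genotype effects of 0.15 in the dark zone, 0.07 in the light zone, 0.19 in plasma cells and 0.01 in naive B cells.

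Genes whose level followed each member most closely were found by Pearson correlation of log2 CPM over 31 libraries among 7707 genes, as a description. These libraries share the 4 populations and their depth, so the values mostly restate the population pattern. Myc was followed by Nsun2 (r = 0.91), Nfkbie (r = 0.89) and Bcl3 (r = 0.88), the last 2 being regulators of NF-kB. Batf was followed by C1qbp (r = 0.89), Hspe1 (r = 0.87) and Nolc1 (r = 0.86), and the last 2 were among the MYC targets listed. Max was followed by Ppp5c (r = 0.88), Uspl1 and Nfatc1 (both r = 0.87). Mxd4 was followed by H13 (r = 0.95), Serp1 (r = 0.95) and Selenof (r = 0.94), genes of the endoplasmic reticulum, and Mxi1 by Tor2a, Serpini1 and Ckap4 (each r = 0.90). Ccnd2 was followed by Irf4, Sub1 and Grn (each r = 0.93), and Ccnd3 by Mtmr14 (r = 0.95), Rpa1 (r = 0.93) and Klhl6 (r = 0.92). Cdk4 was followed by Cct5 (r = 0.91), Mrps7 (r = 0.89) and Plpp1 (r = 0.88), and Cdk6 by Vps13a, Chd4 and Nap1l1 (each r = 0.95). Among the members, r was 0.66 between Myc and Max, 0.64 between Myc and Batf, -0.76 between Ccnd2 and Ccnd3 and -0.84 between Mxd4 and Cdk6.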

How the data were processed

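RNA was measured in 32 libraries of 500 sorted spleen cells each, made with the SMART-Seq v4 kit, per the labels' protocols. The deposited table holds raw read counts per Ensembl gene, whole numbers for 53465 genes, and 0 columns were left unused. The submitters' processing notes name STAR 2.4.2a, HTSeq and Picard without roles. The genome build, the treatment of duplicate reads and the strand setting are not given in the sources used here. Rows without a gene name took 0.173% of counts. Groups follow the sample titles. Members, lists and tests were chosen with earlier results of these data known.

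For each of 16 pairs of groups, only their own libraries entered an edgeR 4.0.16 fit (R 4.3.3, TMM, filterByExpr with minimum count 10 and minimum total 15, two-sided quasi-likelihood F test, Benjamini-Hochberg). The SE was taken as |log2 fold change| / sqrt(F). Both interactions used all 32 libraries. Rows without a gene name carry an Ensembl identifier and were kept. Alternatives were DESeq2 1.42.0, its size factors, limma 3.58.1 voom with sample quality weights, all genes with at least 1 count kept, no immunoglobulin or T cell receptor genes, thinned libraries, a replicate block, a single fit, replicate 1 of aPIK3CD counted as WT, and each library left out. Fits were tested on simulated data. Named list genes are up to 4 with the smallest p in a comparison. Named similar genes are the 3 with the highest r among genes with a mean of at least 20 CPM, with a prior count of 2. Exonic lengths and overlaps come from GENCODE M21. Promoter sequences come from RefSeq. For members, the highest value was 0.242 counts per exonic base, in Myc.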

Additional observations from a re-analysis of the deposited data

Results flagged for a closer look

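In 80 groups of 4 libraries checked (10 members in 8 groups), 4 held 1 library whose gap to the nearest other relative to the group's range exceeded Dixon's 95% critical value, and chance flags about 1 in 20 groups. Mxi1 in the WT dark zone was 7.79 CPM in replicate 4 and 0 CPM in the other 3 libraries. Ccnd2 in the WT dark zone was 73.4 CPM in replicate 4 against 31.6, 32.2 and 35.1 CPM. Batf in WT naive B cells was 62.6 CPM in replicate 4 against 50.6, 52.3 and 52.6 CPM. Tfap4 in aPIK3CD plasma cells was 3.58 CPM in replicate 3 and 0 CPM in the other 3 libraries.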

How the results depend on the processing

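Of 69 population differences of members that passed, 62 kept direction and threshold under all 17 alternatives run for each, and 0 changed direction. Myc, Batf and Ccnd2 between the zones are among the 62. The 7 others lost the threshold under some alternatives: Ccnd3 in WT and Max and Mxi1 in aPIK3CD between dark zone and naive B cells, Ccnd3 in aPIK3CD between plasma cells and naive B cells, Max and Cdk4 in aPIK3CD between plasma cells and light zone, and Max in WT between plasma cells and dark zone. For Max this happened without plasma cell replicate 1, 2 or 3 or dark zone replicate 2 in WT, and without plasma cell replicate 1 or 2 or light zone replicate 2, 3 or 4 in aPIK3CD. Cdk4 and Ccnd3 in aPIK3CD plasma cells lost it with replicate 1 counted as WT. Of 33 genotype values, 22 kept direction and side under all alternatives and 1, Ccnd3 in plasma cells, passed under 1. The number of members passing between genotypes in plasma cells was 2 without the filter on low counts and 1 in the single fit, and 0 to 1 over the fits that leave out 1 library. For the genotype effect among the 4 populations it was 1 without the filter. These extra calls are Cdk6 and, without the filter in plasma cells, Ccnd3, and Cdk6 is tested there only because the filter or the libraries change. With 1 library left out it enters by the WT group, in which it is high, and that call supports nothing.

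Of values that did not pass, some changed sign. Myc between plasma cells and dark zone was 0.01 in WT with DESeq2 size factors, -0.35 to 0.22 over single libraries left out in WT, and -0.55 to 0.02 in aPIK3CD. Myc between light zone and naive B cells in aPIK3CD was -0.05 without the filter, -0.01 with replicate 1 counted as WT, and -0.03 to 0.04 over libraries left out. The genotype difference of the zone step ran from -0.56 to 0.09 for Myc and from -0.71 to 0.20 for Ccnd2 over libraries left out. The causes were not tested.

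With the replicate number as a block, 0 members passed in each genotype comparison and both interactions, and 3 passed between the zones in each genotype. The block changed 3 calls: Ccnd3 between dark zone and naive B cells in WT was lost (adjusted p = 0.068), and Ccnd3 in WT (0.041) and Max in aPIK3CD (0.035) between light zone and naive B cells passed. The labels do not say what a shared number means, and in no comparison were all pairs over 0.1, so the block is not the main fit. Same-numbered libraries correlated at -0.06 to 0.35 in 45 pairs across populations (8 over 0.1, 28 best with their own number) and at -0.13 to 0.18 in 15 pairs across genotypes (4 over 0.1, 7 best with their own number). All 4 pairs were best with their own number between light and dark zone and between dark zone and naive B cells in aPIK3CD and between light zone and naive B cells in WT, and all 3 between plasma cells and dark zone in WT, a hint from the data that libraries of 1 number share a source. Depth limits Tfap4, Mxi1 in the germinal centre and Cdk6 in plasma cells most.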
